A study of Mus musculus with 24 samples.

Results

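Granule protease genes of mast cells were read at low counts in the tibial tumors, whereas the receptor gene Kit and its ligand gene Kitl were read well in every tumor. The genes described here are 8 of the 55401 in the deposited count table: Cpa3, Mcpt4, Cma1, Tpsb2, Hdc and Ms4a2, which are known from mast cells, and Kit and Kitl, the mast cell growth factor receptor and its ligand. They were chosen by symbol, and each was found through its Ensembl identifier in GENCODE M21. KIT is one of the receptor tyrosine kinases that cabozantinib (cabo), an oral inhibitor, can block, beside the VEGF receptors and MET.

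Mast cells are tissue-resident immune cells that arise from hematopoietic progenitors and fill their granules with proteases, heparin and histamine. KIT on the surface of mast cells, early blood progenitors and melanocytes binds KIT ligand, also called stem cell factor, which stromal and endothelial cells make, and mast cells depend on this signal to mature and survive. In bone marrow, KIT ligand from perivascular stroma and endothelium also maintains blood stem cells.

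RNA came from 24 bulk tumors of male C57/BL6 mice aged 8 to 10 weeks. TC2Ras cells, a variant of the mouse prostate cancer line TRAMP-C2 that carries activated H-Ras, were grown under the skin and taken after 1 week, and all mice received a plasmid by sonoporation into muscle. This gave 2 tumors with the IL-27 plasmid and 2 with the empty vector. The luciferase-labelled line TC2Ras-Luc was grown in the tibia of 20 other mice, which also got either plasmid, and either 30 mg/kg of cabo daily for 14 days or its vehicle, 15% PVP. The 4 intratibial groups were thus control (empty vector and PVP), IL-27 (IL-27 plasmid and PVP), cabo (empty vector and cabo) and IL-27+cabo. Each had 3 mice at day 14 and 2 at the end of the study (EOS), when cabo had been stopped and mice were kept to the ethical endpoint. Every intratibial tumor is from a separate mouse per the labels, and the subcutaneous tumors carry a number alone, so their p-values may measure technical spread. Tumor sections hold host tissue as well as cancer cells, and in such bulk RNA fewer cells of a type cannot be told apart from less RNA per cell.

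The libraries held 63729005 to 83782258 counts on genes. Between 30.4% and 35.5% of their values from 1 to 20 were multiples of 4, so a low count may stand for fewer fragments than it says. A count of 0 allows up to 3 counts, or 0.0357 to 0.0559 counts per 1000000 (CPM) depending on the library, and this covers counting error only. Among the 12 day 14 tumors, a score of 10 skeletal muscle genes, the mean of their log2 CPM, ran from -0.98 to 3.39 in the controls, 0.97 to 7.29 with IL-27, 6.17 to 6.78 with cabo and 6.50 to 8.51 with IL-27+cabo. The muscle RNA therefore moves with cabo, and its part in the day 14 differences was tested only as a covariate.

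The 4 granule protease genes had higher medians under the skin than in bone, where their counts were low, although Tpsb2 was as low in the subcutaneous IL-27 tumors as in bone. Cpa3 encodes carboxypeptidase A3 and lies at chr3:20215620-20242181 on the minus strand of GRCm38. Its count was 1124 and 704 in the subcutaneous control tumors and 1900 and 2924 with IL-27, whereas it ranged from 4 to 255 in the 20 intratibial tumors. The median level of Cpa3 was 18.3 CPM under the skin and 0.297 CPM in bone. Mcpt4 and Cma1, which encode the chymases MCPT4 and MCPT5 and lie at chr14:56059629-56062313 and chr14:55941451-55944675 on the minus strand, had medians of 10.7 and 10.3 CPM under the skin and 0.285 and 0.389 CPM in bone. Tpsb2, the tryptase mast cell protease 6 (MCPT6) gene at chr17:25366305-25369098, had a median of 1.98 CPM under the skin and 0.446 CPM in bone. The sites also differ in cell line, time and treatment, and the sample labels carry a different library prefix at each site. These site medians are therefore a description and were not tested.

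Ms4a2 encodes the beta chain of the high-affinity IgE receptor and lies at chr19:11615523-11623719 on the minus strand. Its count was 25 and 14 in the subcutaneous controls and 98 and 80 with IL-27, while it was 0 in 15 of the 20 intratibial tumors and at most 8 in the others. Ms4a2 passed edgeR's filter on low counts in the subcutaneous comparison alone and was not tested by edgeR in bone. Fcer1a, which encodes the alpha chain of the same receptor, was at 0 in 16 of 20 intratibial tumors. The mast cell receptor gene Mrgprb2 was also at 0 in 16 of the 20, and the tryptase gene Tpsab1 at 0 in 15. Of the 20 other mast cell genes, 7 were at 0 in 11 or more of the 20 intratibial tumors, among them the proteases Mcpt1 and Cma2 and the receptor gene Mrgprb1. Another 11 were above 0 in all 20, with median counts of 1801 for Il1rl1, 1313.5 for Fcer1g, 3547 for Gata2, 598.5 for Slc6a4, 399 for Hpgds and 245 for Slc18a2, genes that other cells also use. The IgE receptor chains Ms4a2 and Fcer1a were thus at or near 0 in most bone tumors, and the protease counts there rest on few reads.

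Kit and Kitl were read at both sites. Kit, at chr5:75574916-75656722, had a median of 13.9 CPM under the skin and 8.22 CPM in bone. Kitl, at chr10:100015630-100100416, had medians of 129 and 52.7 CPM. Per kilobase of exon, which sets genes on one scale, the median level in bone was 0.922 CPM for Kit against 0.196 CPM for Cpa3 and 8.92 CPM for Kitl. Under the skin the order was different, with 12 CPM per kilobase for Cpa3, 1.56 for Kit and 21.8 for Kitl. Hdc encodes histidine decarboxylase, the enzyme that makes histamine, in mast cells, basophils and other myeloid cells, and lies at chr2:126593667-126619299 on the minus strand. Its medians of 2.09 CPM under the skin and 1.06 CPM in bone were closer to each other than those of the protease genes. The plot of levels by group shows this gap between the sites for the proteases.

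**Figure D1:**
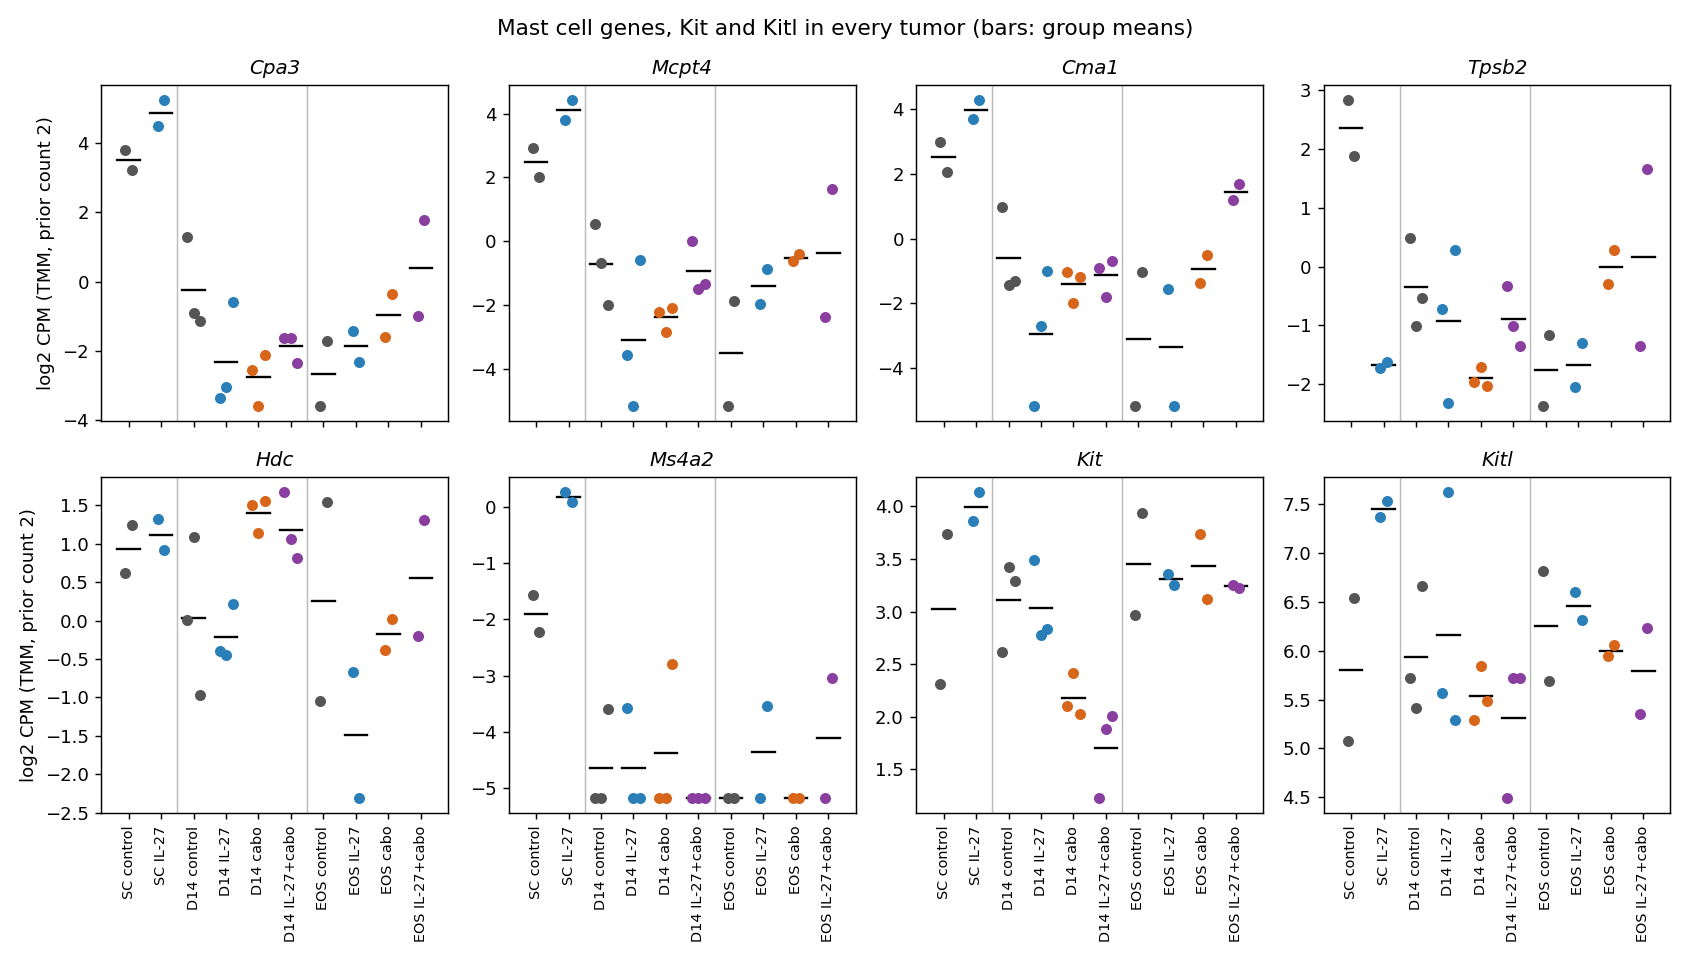
Level of each gene in log2 CPM (y axis, own scale per panel) in every tumor, with 1 point per tumor, the groups along the x axis (D14 is day 14, SC subcutaneous) and bars for group means. The proteases and Ms4a2 are highest in the subcutaneous tumors, apart from Tpsb2 with IL-27, and among the bone tumors Kit has its lowest points in the 6 day 14 tumors that got cabo.

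The upstream sequences of 4 mast cell genes are shown because GATA letters were found in them. The window of Hdc held such letters too and is not shown, as it lies within the bounds that GENCODE gives the gene. RefSeq holds a start site for 7 of the 8 genes on GRCm38.p6, and Tpsb2 is not among them. The GATA factor letters searched were AGATAA or TGATAA or AGATAG or TGATAG, and the MITF letters were CATGTG or CACGTG, each on both strands. The 250 bases before the start site held GATA letters in 5 of 7 genes and MITF letters in 0 of 7. Among all 32851 promoters of that length, 26.5% held GATA letters, 17.6% MITF letters and 5.06% both. A match is a description of letters, and says nothing of a factor binding there. Capitals mark the GATA letters. The windows, all on the minus strand, are chr3:20242182-20242431 for Cpa3, chr14:56062311-56062560 for Mcpt4, chr14:55944676-55944925 for Cma1 and chr19:11623720-11623969 for Ms4a2.
Cpa3: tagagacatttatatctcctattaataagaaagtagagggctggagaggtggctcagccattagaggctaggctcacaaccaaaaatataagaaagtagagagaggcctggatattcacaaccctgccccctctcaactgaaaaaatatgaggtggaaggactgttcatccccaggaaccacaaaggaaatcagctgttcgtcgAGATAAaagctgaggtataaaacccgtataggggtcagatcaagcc
Mcpt4: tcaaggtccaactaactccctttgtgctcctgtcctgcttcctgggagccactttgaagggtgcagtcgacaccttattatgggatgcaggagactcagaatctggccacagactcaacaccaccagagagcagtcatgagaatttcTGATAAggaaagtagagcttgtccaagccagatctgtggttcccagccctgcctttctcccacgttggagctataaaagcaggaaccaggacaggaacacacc
Cma1: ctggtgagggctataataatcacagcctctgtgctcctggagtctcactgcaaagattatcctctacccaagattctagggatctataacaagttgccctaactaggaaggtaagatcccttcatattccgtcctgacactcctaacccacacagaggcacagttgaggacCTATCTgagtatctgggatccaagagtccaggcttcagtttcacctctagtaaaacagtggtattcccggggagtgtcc
Ms4a2: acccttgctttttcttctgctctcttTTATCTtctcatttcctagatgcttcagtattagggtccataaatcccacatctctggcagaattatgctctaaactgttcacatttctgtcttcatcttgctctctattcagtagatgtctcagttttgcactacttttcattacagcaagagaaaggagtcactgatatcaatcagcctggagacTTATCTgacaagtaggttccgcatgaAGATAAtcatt
In these sequences the letters of Cpa3 lie 46 bases before the start, those of Mcpt4 103 bases and those of Cma1 79 bases on the opposite strand. Ms4a2 has 3 matches, at 224, 37 and 11 bases. Hdc had a match 221 bases before its start, and Kit and Kitl had none.

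IL-27 was compared with empty vector in the subcutaneous tumors to ask what the cytokine gene did there, with 2 tumors a group. Tpsb2 fell, and the other proteases were higher in every IL-27 tumor than in any control, a difference that DESeq2 called and edgeR did not. The count of Tpsb2 was 571 and 275 in the controls and 23 and 23 with IL-27, or 5.37 ± 2.41 CPM (SD, n = 2) and 0.285 ± 0.0162 CPM. This is 18.5-fold lower, a log2 fold change of -4.21 ± 0.63 (SE, adjusted p = 0.00467, edgeR). Over all 19360 genes tested, 20% were called, and 1 of the 8 genes described here was called by edgeR, with 6 of 8 at an unadjusted p under 0.05 beside 35.4% of all genes. DESeq2 called 5 of the 8, Tpsb2, Cpa3, Mcpt4, Cma1 and Kitl, beside 28.1% of all genes. Groups did not overlap in 7 of 8, with 6 higher and 1 lower, against 66.9% of all genes. The median log2 fold change of the 8 genes was 1.41, and that of all genes 0.04.

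Cpa3 had a log2 fold change of 1.38 ± 0.41 (adjusted p = 0.0573), Mcpt4 1.61 ± 0.47 (0.0543) and Cma1 1.43 ± 0.47 (0.0735). The group means, control first, were 11.6 ± 3.22 and 30.2 ± 10.7 CPM for Cpa3, 5.81 ± 2.53 and 17.6 ± 5.37 CPM for Mcpt4, and 5.99 ± 2.59 and 16.1 ± 4.60 CPM for Cma1. Ms4a2 was at 0.248 ± 0.0872 and 1.10 ± 0.0952 CPM, a log2 difference of 2.16 ± 0.77 with an adjusted p of 0.0934. Kitl went from counts of 2711 and 7008 to 13857 and 14316, with a log2 fold change of 1.47 ± 0.50 (adjusted p = 0.0845). Kit had counts of 397 and 997 in the controls and 1217 and 1360 with IL-27, a log2 fold change of 0.83 ± 0.53 (adjusted p = 0.305). Leaving out 1 tumor gave 0.28 to 1.68 for Kit and 0.92 to 2.36 for Kitl. Hdc overlapped between the groups, with a log2 fold change of 0.19 ± 0.56 (adjusted p = 0.838).

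The fold changes ran alongside a trend with GC content in these 4 libraries. Across all genes sorted into 4 equal bins by the GC content of their longest transcript, the median log2 fold change was 0.85 in the lowest bin (17.1% to 44.5%), 0.38 and -0.33 in the next 2 bins and -2.05 in the highest (53.9% to 78.3%). Tpsb2 has the highest GC content of the 8, 56.9%, and Ms4a2 the lowest, 37.6%. With each library's trend in GC content and length removed, the log2 fold change of Tpsb2 was -1.95 with an adjusted p of 0.0630, and its adjusted p ran from 2.55e-09 to 0.0630 over the alternatives. That call was also lost with the replicate block added to the correction, at -1.93, and with the muscle score as a covariate, where the fold change of Tpsb2 was larger, at -5.92 with an adjusted p of 0.0603. With the GC and length trend removed, Cpa3 had a log2 fold change of 0.42, Ms4a2 0.94, Kitl 0.50, Mcpt4 1.50 and Cma1 1.46. With the muscle covariate in its place, Mcpt4 had 0.39 and Cma1 0.20, at adjusted p of 0.887 and 0.946. Over all 9 alternatives other than leaving out a tumor, Kitl ran from 0.50 to 4.53 and was called in 3. Kit ran from 0.61 to 3.87 over them and was called in 0. Reads of Tpsb2 and Tpsab1, and of the chymase genes, may be shared between similar copies, so their split is uncertain, and this was not measured.

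**Figure D2:**
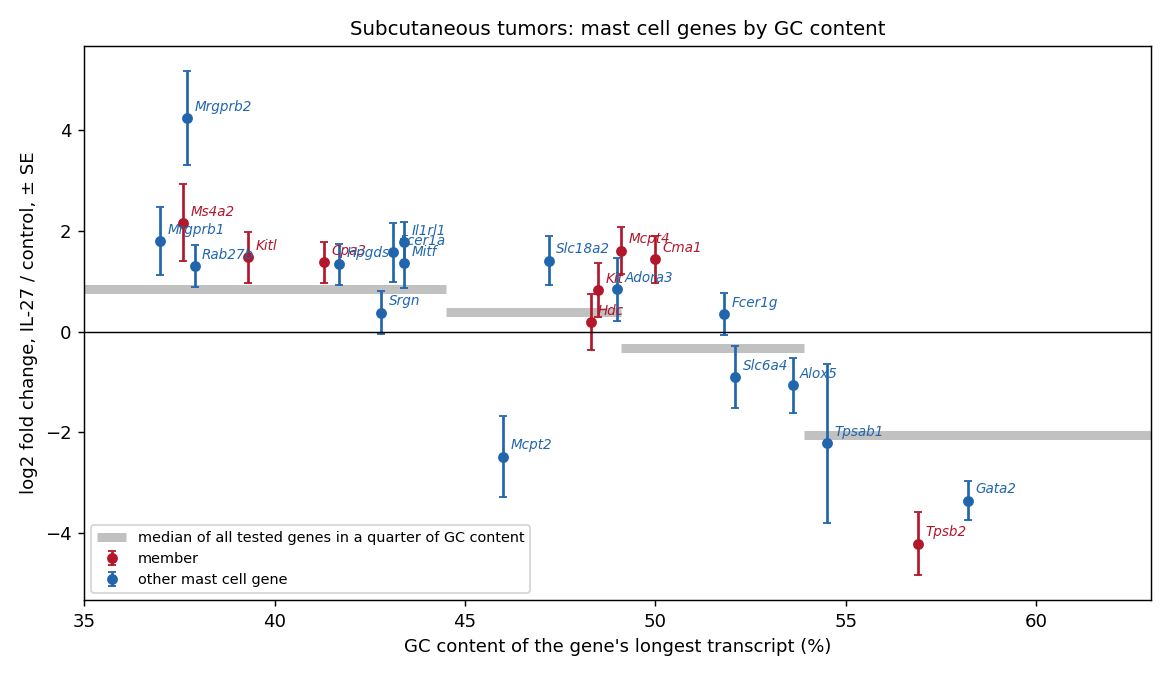
Log2 fold change of IL-27 over control subcutaneous tumors (y axis) against the GC content in percent of each gene's longest transcript (x axis), with SE bars, the genes described here in red, the other mast cell genes in blue and the median of all genes in each of 4 GC bins as a grey line. Ltc4s, at 0 counts with IL-27, is not plotted. Tpsb2, at a GC content of 56.9%, lies at -4.21, and the medians of all genes go from 0.85 to -2.05.

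Of 17 other mast cell genes tested under the skin, 2 were higher and 2 lower with IL-27, and their median log2 fold change was 0.84. These 4 calls of 17 are likewise near the 20% of all genes called. Mrgprb2 rose by 4.24 ± 0.93 and Il1rl1, the IL-33 receptor gene, by 1.78 ± 0.40. Gata2, a transcription factor gene of mast cells and progenitors, fell by 3.36 ± 0.38, from counts of 2250 and 2138 to 218 and 220. Ltc4s, which makes leukotriene C4, had 98 and 166 counts in the controls and 0 and 0 with IL-27. By GC content Gata2 (58.2%) and Ltc4s (61.0%) lie in the highest bin, and Mrgprb2 (37.7%) and Il1rl1 (43.4%) in the lowest. Muscle genes were higher for 9 of 10 with IL-27 and neutrophil granule genes for 5 of 6 tested, with muscle scores of -2.86 to 0.13 in the controls and 4.61 to 5.82 with IL-27. The neutrophil score was -3.81 to -3.47 in the controls and -0.19 to 0.55 with IL-27, and its part in these differences was not tested. Of the KIT signaling genes 5 of 22 were called, all lower, a share near the 20% of all genes, among them Fes with a log2 fold change of -2.76 and Stat5b with -1.94. Of 7 growth and survival factors of mast cells tested, Il33 was higher (2.41), and those lower included Tgfb1 (-2.67). All fold changes in this paragraph are without the GC and length correction.

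At day 14 in bone the question was what cabo did alone and with IL-27. Kit was lower in all cabo-treated tumors, and with cabo alone Cpa3, Mcpt4 and Tpsb2 were lower in every tumor than in any control without passing edgeR's test. Kit was at 6.09, 10.7 and 9.74 CPM in the controls and 11.2, 6.82 and 7.12 CPM with IL-27. With cabo it was at 4.25, 5.30 and 4.04 CPM, and with IL-27+cabo at 2.31, 3.67 and 3.98 CPM. Every tumor that got cabo was thus below every tumor that did not. Averaged over both vectors the levels were 3.92 ± 0.967 and 8.62 ± 2.21 CPM (SD, n = 6 each), a log2 fold change of -1.16 ± 0.22, or 2.23-fold lower (adjusted p = 0.0373, edgeR).

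In that averaged comparison 0.779% of all genes were called, and 2.74% did not overlap between the groups, against 1 of the 7 members tested for either count. The exact permutation test of the Kit level gave p = 0.00216, the smallest that 6 tumors against 6 allow. It shuffled the tumors without regard to vector, and its p was not adjusted over the members. DESeq2 called Kit and Hdc, beside 4.33% of all genes. The call of Kit was lost on leaving out mouse 22, 24, 4, 6, 21, 25, 27, 5 or 7 and kept without mouse 20, 8 or 3, while the log2 fold change stayed between -1.25 and -1.02. Without a filter on low counts the adjusted p was 0.0598, and with the muscle score as a covariate 1.00, at a log2 fold change of -1.07. Over these alternatives other than leaving out a tumor, the adjusted p ran from 8.54e-05 to 1.00. Mouse 20 had the lowest Kit level of all tumors and the fewest genes detected, 21269.

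With cabo alone against control, Kit had a log2 fold change of -0.96 ± 0.24 (adjusted p = 0.0940). Leaving out mouse 3, the control with the lowest Kit, gave -1.18 with an adjusted p of 0.0276, in a range of 0.0276 to 0.296 over the tumors left out. Over the other alternatives Kit ran from -1.94 to -0.96, with an adjusted p of 0.00317 to 0.719. In this comparison edgeR called 0 of 7 members, with 5 at an unadjusted p under 0.05, and DESeq2 called 2, Kit and Cpa3, beside 8.03% of all genes. By edgeR 1.89% of all genes were called and 18.9% had an unadjusted p under 0.05. The groups did not overlap for 5 of the 7, which were Cpa3, Mcpt4, Tpsb2 and Kit on the lower side and Hdc on the higher, against 27.2% of all genes. The median log2 fold change of the 7 was -1.28, and that of all genes -0.01.

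The protease differences leaned on 1 control mouse. The count of Cpa3 was 176, 39 and 31 in the control tumors, 5, 6 and 44 with IL-27, 10, 4 and 14 with cabo and 16, 22 and 12 with IL-27+cabo. Cabo alone against control gave a log2 fold change of -3.04 ± 0.83 (adjusted p = 0.120), and -1.80 without mouse 3, the control with 176 counts. With the muscle score as a covariate it was 0.07, and its adjusted p ran from 0.00343 to 0.995 over the alternatives. Mcpt4 had counts of 104, 45 and 16 in the controls and 13, 8 and 14 with cabo, a log2 fold change of -2.15 ± 0.71 (adjusted p = 0.170), which was -1.27 without mouse 3 and -0.42 with the muscle covariate. Tpsb2 had counts of 100, 36 and 48 and of 16, 20 and 15, a log2 fold change of -1.78 ± 0.50 (adjusted p = 0.127), which was -1.22 without mouse 3 and turned to 0.20 with the muscle covariate. Cma1 overlapped, at 142, 26 and 27 against 32, 16 and 28, and its log2 fold change of -1.28 ± 0.74 became 0.02 without mouse 3.

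Hdc differed in the other direction without passing edgeR's test. Its level was 0.973, 2.09 and 0.481 CPM in the control tumors and 2.80, 2.17 and 2.90 CPM with cabo, a log2 fold change of 1.15 ± 0.49 (adjusted p = 0.257), which turned to -0.074 with the muscle score as a covariate. It was 0.732, 0.708 and 1.13 CPM with IL-27 and 3.15, 2.06 and 1.73 CPM with IL-27+cabo. The neutrophil score was -2.25 to -1.92 in the day 14 controls, -2.78 to -2.01 with IL-27, -3.50 to -2.26 with cabo and -3.45 to -2.55 with IL-27+cabo. With cabo alone 3 of its 6 genes tested had a fold change above 0. Ltf (-2.75), Ngp (-2.79) and Camp (-2.85) were lower without being called by edgeR. In the average over vectors 1 of the 7 neutrophil genes tested was called, as lower. Averaged over both vectors Hdc was at 2.47 ± 0.558 CPM with cabo and 1.02 ± 0.573 CPM without, a log2 fold change of 1.29 ± 0.35 (adjusted p = 0.118, edgeR). DESeq2 called Hdc there (adjusted p = 0.00937). One control tumor, that of mouse 5, lay within the range of the cabo-treated tumors. Kitl overlapped between the groups, at 47.1 ± 9.38 CPM with cabo and 65.5 ± 31.2 CPM in the controls, a log2 fold change of -0.48 ± 0.31 (adjusted p = 0.449).

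Endothelial genes moved with Kit. With cabo alone 5 of the 9 endothelial genes fell, beside 1.89% of all genes called. Among them were Emcn with a log2 fold change of -2.70, Cldn5 with -2.80 and Tie1 with -1.81. Averaged over vectors 4 of 9 fell, beside 0.779% of all genes called. The endothelial score, the mean log2 CPM of the 9 genes, was 3.99 to 4.58 in the controls and 3.98 to 4.37 with IL-27, but 2.92 to 3.28 with cabo and 2.93 to 3.11 with IL-27+cabo, and its part in the lower Kit was not tested. Muscle genes rose for 4 of 10 with cabo alone. Of the KIT signaling genes, Cbl (0.52) was higher and Fyn (-0.44) lower among 22 tested with cabo alone, with 21 of 22 fold changes above 0, a median of 0.23 and 9 at an unadjusted p under 0.05. Of all 18627 genes tested with cabo alone, 9109 had a fold change above 0 and 18.9% had an unadjusted p under 0.05. By edgeR 0 of the 22 KIT signaling genes were called when averaged over vectors. Of them 5 had an unadjusted p under 0.05, beside 2498 of all 19899 genes tested. Other mast cell genes gave 0 calls of 13 by edgeR with cabo alone, with 2 at an unadjusted p under 0.05, and their median log2 fold change was 0.18. None of the 11 genes of the related receptors and ligands, 8 progenitor genes, 2 melanocyte genes, 4 basophil genes or 4 histamine genes was called by edgeR with cabo alone, with 2, 2, 0, 1 and 0 of them at an unadjusted p under 0.05.

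With IL-27 alone at day 14, edgeR called 0 of 7 members with 0 at an unadjusted p under 0.05, and DESeq2 called 0 with 1 at that unadjusted p. By edgeR this stood against 0.00% of all genes called and 2.76% at that unadjusted p. Their median log2 fold change was -0.44, and Kit had -0.06 ± 0.30 (95% interval -0.64 to 0.52). Cpa3, at 0.265 ± 0.317 CPM with IL-27 and 1.12 ± 1.12 CPM in the controls, had a log2 fold change of -2.04 ± 1.02 (adjusted p = 1.00).

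The combination against control gave 0 calls among the members by edgeR, with 2 at an unadjusted p under 0.05, and DESeq2 called Kit, beside 1.95% of all genes. By edgeR 0.0640% of all genes were called and 6.20% had an unadjusted p under 0.05. Kit, at 3.32 ± 0.889 CPM, had a log2 fold change of -1.39 ± 0.35 (adjusted p = 0.340), and Cpa3 -2.09 ± 0.81 (adjusted p = 0.742). These 2 of 7 were lower in every IL-27+cabo tumor than in any control, beside 15.6% of all genes whose groups did not overlap. The value of Cpa3 was -0.85 without control mouse 3 and turned to 0.88 with the muscle score as a covariate.

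Against cabo alone 0 members were called for the combination by edgeR or DESeq2, and DESeq2 called 3 genes in all. Of the 7 tested by edgeR, 1 had an unadjusted p under 0.05, beside 0.00% of all genes called and 1.92% at that unadjusted p. Mcpt4 was at 52, 24 and 26 counts with IL-27+cabo and 13, 8 and 14 with cabo, a log2 fold change of 1.76 ± 0.67 (adjusted p = 0.788). Tpsb2 was also higher in every tumor of the combination, at 1.18 ± 0.52, and Kit lower in every tumor, at -0.42 ± 0.30 (95% interval -1.0 to 0.16). These 3 of 7 did not overlap, beside 12.4% of all genes. Against IL-27 alone 0 of 7 were called by edgeR or DESeq2, with 2 at an unadjusted p under 0.05. By edgeR this stood beside 0.00% of all genes and 4.85% at that unadjusted p, and DESeq2 called 120 genes in all. Kit had a log2 fold change of -1.34 ± 0.38 and Hdc 1.43 ± 0.46 (adjusted p = 0.916 for both). The interaction of IL-27 and cabo called 0 members by edgeR or DESeq2, beside 3 genes in all by DESeq2. By edgeR 1 of 7 had an unadjusted p under 0.05, beside 0.00% of all genes called and 1.88% at that unadjusted p, and by DESeq2 2 did. Its log2 value was 2.97 for Cpa3, 3.40 for Mcpt4 and -0.38 ± 0.43 for Kit (adjusted p = 0.952 for each).

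At EOS, when cabo had been stopped, the Kit levels of the groups overlapped, and the proteases had their highest bone counts in 1 IL-27+cabo mouse. Kit was at 7.78 and 15.3 CPM in the controls, 10.2 and 9.49 CPM with IL-27, 13.3 and 8.66 CPM with cabo and 9.51 and 9.31 CPM with IL-27+cabo. These ranges overlapped, and the log2 fold change against control was -0.24 ± 0.34 with the IL-27 plasmid, -0.07 ± 0.34 after cabo and -0.29 ± 0.34 after IL-27+cabo. The 95% interval for cabo was -0.75 to 0.60, and the difference from the day 14 change was 0.87 (95% interval -0.087 to 1.84, adjusted p = 1.00, edgeR).

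Cpa3 had 4 and 19 counts in the EOS controls, 24 and 12 with IL-27, 22 and 52 with cabo, and 35 and 255 with IL-27+cabo. The tumor of mouse 28, in the last group, also had 233 counts of Mcpt4, 237 of Cma1 and 236 of Tpsb2, each the highest in bone. IL-27+cabo against control gave log2 fold changes of 3.54 ± 1.13 for Cpa3, 3.72 ± 1.60 for Mcpt4, 3.55 ± 1.61 for Cma1 and 2.58 ± 0.98 for Tpsb2, with adjusted p of 0.251 to 0.378. Without mouse 28 they were 1.53, 0.42, 3.29 and 0.34. Cpa3 and Cma1, 2 of 7, did not overlap between these groups, beside 42.3% of all genes. Of the 7 members, 0 were called by edgeR and 2 had an unadjusted p under 0.05, beside 0.00% of all genes called and 14.2% at that unadjusted p. DESeq2 called Cpa3, beside 4.16% of all genes.

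Cabo against control at EOS gave 0 calls among the members by edgeR or DESeq2 and 0 at an unadjusted p under 0.05. By edgeR this stood beside 0.00% and 8.90% of all genes, and DESeq2 called 245 genes in all. Cpa3, Mcpt4 and Tpsb2 were higher in both cabo tumors than in either control, with log2 fold changes of 1.66 ± 1.09, 2.43 ± 1.55 and 1.74 ± 0.96 (adjusted p = 0.696, 0.688 and 0.652). These were 3 of 7 members without overlap, beside 43.0% of all genes. Leaving out 1 tumor gave 0.87 to 3.21 for Cpa3 and 1.22 to 2.55 for Tpsb2, the low values without mouse 23 and mouse 13 and the high ones without mouse 9. For Mcpt4 it gave 1.43 without mouse 13, and without mouse 9 the lone control left had 0 counts of Mcpt4. IL-27 against control gave 0 calls among the members by edgeR with 0 at an unadjusted p under 0.05, beside 0.00% and 3.25% of all genes. DESeq2 called 0 members, with 1 at that unadjusted p, and 25 genes in all. The muscle score was -1.43 to -0.03 in the EOS controls, 3.07 to 5.93 with cabo and 2.41 to 3.98 with IL-27+cabo. Over the alternatives other than leaving out a tumor, cabo gave 1.61 to 6.46 for Cpa3, 2.43 to 6.46 for Mcpt4 and 1.72 to 4.62 for Tpsb2. IL-27+cabo gave 3.46 to 6.84 for Cpa3, 3.71 to 6.23 for Mcpt4, 3.53 to 7.08 for Cma1 and 2.56 to 4.45 for Tpsb2.

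EOS was set against day 14 within each treatment. In the cabo group, where 14 days of drug had ended, Kit rose and Hdc fell. Kit went from 4.53 ± 0.673 CPM (n = 3) to 11 ± 3.31 CPM (n = 2), a log2 fold change of 1.29 ± 0.23, or 2.44-fold (adjusted p = 0.0469). Hdc went from 2.62 ± 0.398 to 0.863 ± 0.172 CPM, 3.03-fold lower, with a log2 fold change of -1.60 ± 0.29 (adjusted p = 0.0494). Both calls were lost on leaving out any of the 5 tumors, with adjusted p of 0.0571 to 0.177 for Kit and 0.0718 to 0.182 for Hdc. The fold changes then stayed between 0.94 and 1.56 for Kit and between -1.82 and -1.41 for Hdc. The calls were also lost without a filter on low counts, with the muscle score as a covariate and with all 10 groups in one fit, and that of Hdc with the GC correction, at fold changes of 1.28 to 1.71 for Kit and -1.92 to -1.58 for Hdc. Over these settings the adjusted p ran from 3.43e-05 to 0.483 for Kit and from 0.000152 to 1.00 for Hdc. Of all genes 2.09% were called, against 2 of 7 members, and 36.5% of all genes did not overlap, against 6 of 7 members.

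The other members did not pass edgeR's test in the cabo group. Tpsb2 had a log2 fold change of 2.02 ± 0.42 (adjusted p = 0.0689), Mcpt4 2.00 ± 0.52 (0.119), Cpa3 1.97 ± 0.74 (0.242), Cma1 0.52 ± 0.55 (0.693) and Kitl 0.45 ± 0.15 (0.204). DESeq2, which gave an adjusted p for 6 of the 7, called Kit, Tpsb2, Hdc and Mcpt4, beside 10.1% of all genes. Of the 9 endothelial genes 6 rose at the same time, among them Cldn5 (3.94) and Emcn (3.31), and the endothelial score went from 2.92 to 3.28 at day 14 to 4.63 to 4.82 at EOS. The part of these cells in the higher Kit was not tested. Ms4a2 had 0, 0 and 8 counts at day 14 and 0 and 0 at EOS, and of 13 other mast cell genes tested 2 fell, Srgn (-0.84) and Slc6a4 (-1.38). Neutrophil genes gave 0 calls of 5 tested, 4 of them at an unadjusted p under 0.05, beside 3364 of all 19144 genes tested. Their score was -3.50 to -2.26 at day 14 and -4.53 to -4.30 at EOS beside the lower Hdc. Of the KIT signaling genes Jak2 (-0.69), Cblb (-0.47) and Lyn (-0.39) fell among 22 tested, and of 7 growth factor genes Cxcl12 fell (-1.37).

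In the other groups edgeR gave no call among the members between the times. In the controls edgeR called 0 of 7 members, with 1 at an unadjusted p under 0.05, beside 0.104% of all genes and 13.1% at that unadjusted p. DESeq2 called 0 members, with 2 at that unadjusted p, and 813 genes in all. Cpa3 had a log2 fold change of -2.75 ± 1.07 (adjusted p = 0.350) and Kit 0.39 ± 0.35. Cpa3 and Tpsb2, 2 of 7, were lower in both EOS controls than in any at day 14, beside 33.5% of all genes without overlap. With IL-27, edgeR and DESeq2 called 0 of 7 and 0 had an unadjusted p under 0.05. By edgeR this stood beside 0.00% and 5.05% of all genes, and DESeq2 called 108 genes in all. Hdc there had a log2 fold change of -1.14 ± 0.67 (adjusted p = 0.818). With IL-27+cabo edgeR called 0 of 7, with 3 at an unadjusted p under 0.05, beside 0.00% and 3.83% of all genes, and DESeq2 called Cma1, beside 1.46%. There Cma1 had a log2 fold change of 2.55 ± 0.57 (adjusted p = 0.554), Cpa3 2.88 ± 0.91 (0.881) and Kit 1.49 ± 0.38 (0.694), all of them higher in both EOS tumors than in any day 14 tumor. These were 3 of 7 members without overlap, beside 22.2% of all genes.

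The difference between the cabo change at EOS and at day 14 was tested across all intratibial tumors. It called 0 of 7 members by edgeR or DESeq2, with 3 at an unadjusted p under 0.05 by edgeR and 4 by DESeq2. By edgeR 0.0788% of all genes were called and 4.11% had that unadjusted p, and DESeq2 called 88 genes in all. The difference was 4.70 ± 1.58 for Cpa3 (adjusted p = 0.938), 4.57 for Mcpt4 (1.00), 3.51 ± 1.20 for Tpsb2 (0.953), -2.12 ± 1.03 for Hdc (1.00) and 0.87 ± 0.49 for Kit (1.00). The plot of changes with cabo and over time sets these beside each other.

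**Figure D3:**
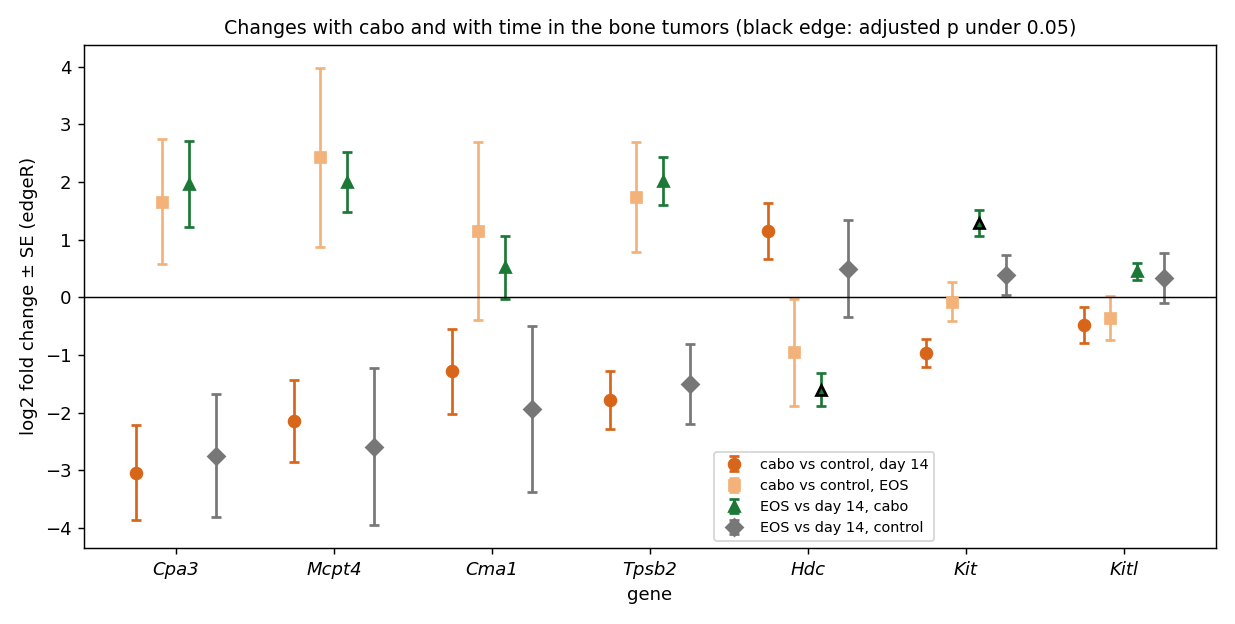
Log2 fold change with its standard error for each member tested, for cabo against control at day 14 and at EOS, and for EOS against day 14 in the cabo and control groups, with the genes along the x axis. Ms4a2 was not tested. A black edge marks an adjusted p under 0.05, which holds for Kit (1.29) and Hdc (-1.60) from day 14 to EOS with cabo.

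Kit and the mast cell genes followed different genes across the 20 intratibial tumors. Among 13883 genes, those whose log2 CPM was most like that of Kit by Pearson's r were Flt1 (0.94), Pcdh1 (0.93), Col4a2 (0.92), Ldb2 (0.92) and Adgrf5 (0.91). Flt1 encodes a VEGF receptor and Col4a2 a chain of basement membrane collagen. For the mean log2 CPM of Cpa3, Mcpt4, Cma1, Tpsb2 and Ms4a2 they were Aldh1b1, Mfng and Gm15387 (0.79 each), Phf19 and Cenpp (0.78 each), and for Kitl Slc1a4 and Pdxk (0.90 each), Gpsm2 (0.89), Lipg and Peg10 (0.88 each). For Hdc, a target chosen after its values were seen, they were Chil3 (0.91), Pla1a (0.84), Ccl2 (0.83), Slfn1 (0.82) and Il1b (0.82). By Spearman's rho, of the 5 genes most like the mast cell mean, Cenpp (0.83) alone was also on the Pearson list. All these values come from the same 20 libraries, which differ in treatment, time and muscle RNA, and the r values of Kit span the separate clusters of tumors described next.

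By Kit and endothelial score the tumors formed separate clusters, so the relation is given within each. The 6 day 14 tumors that got cabo had scores of 2.92 to 3.28 and a Kit level of 1.23 to 2.41 log2 CPM, and the other 14 had 3.85 to 4.82 and 2.61 to 3.94. Pearson's r within the 6 was 0.27 (permutation p = 0.611, adjusted 0.611) and Spearman's rho 0.31 (permutation p = 0.564, adjusted 0.564). Within the other 14 r was 0.36 (permutation p = 0.208, adjusted 0.416) and rho 0.27 (permutation p = 0.359, adjusted 0.564). Leaving out the 2 tumors farthest from the median score gave -0.08 and 0.24. Permutation tests were run for these 2 relations. Each cluster spans a narrow range of both measures, so the values within them say little about the relation across all 20 tumors.

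**Figure D4:**
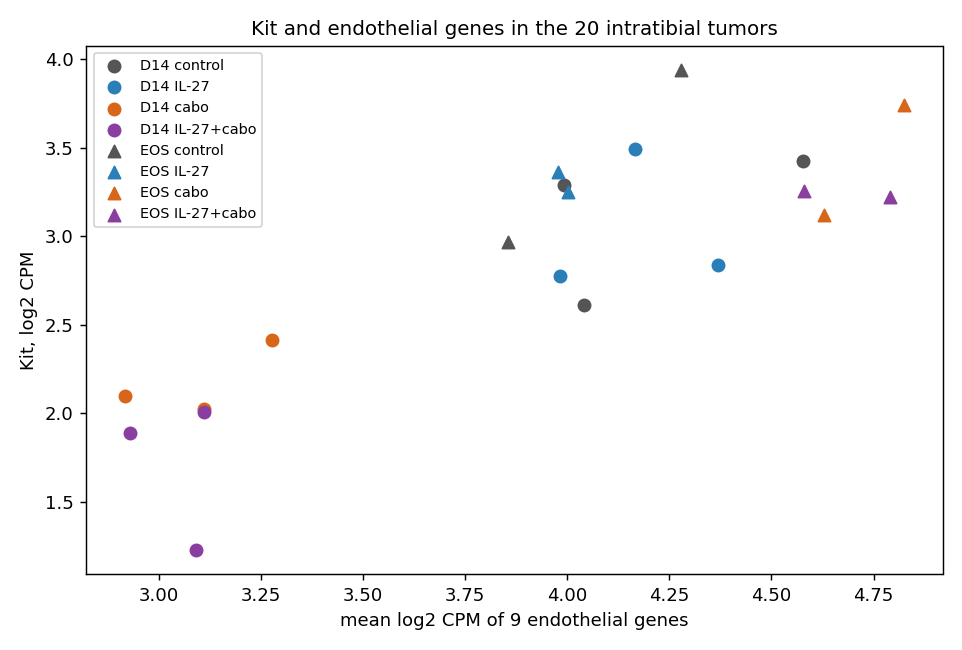
Kit level in log2 CPM (y axis) against the endothelial score, the mean log2 CPM of 9 endothelial genes (x axis), with 1 point for each of the 20 intratibial tumors and a color per group. The 6 cabo-treated day 14 tumors lie at 2.92 to 3.28 on the x axis and the other 14 at 3.85 to 4.82.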

How the data were processed

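RNA was sequenced from 24 tumors as stranded poly(A) libraries. The authors trimmed reads with cutadapt and mapped them with HISAT2. For expression levels they name StringTie and ballgown, without saying whether these made the counts. The deposited values are raw counts, whole numbers for each Ensembl gene. The program that counted, the mouse build, the annotation and any use of strand are not given in the sources used here, and the submitters' processing notes name the human build GRCh38. Genes were named and placed by GENCODE M21 on GRCm38, which held 55141 of 55401 identifiers.

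The tests were edgeR 4.0.16 quasi-likelihood F tests in R 4.3.3, after filterByExpr and TMM. Two-sided p-values were Benjamini-Hochberg adjusted over all genes tested, with a threshold of 0.05. The SE is the absolute log2 fold change over the square root of F. The 95% intervals are the log2 fold change ± 1.96 SE. They take no account of the few degrees of freedom of the F test and so are too narrow. Pairs of groups were fitted alone, the averaged and interaction contrasts used all day 14 tumors, EOS groups shared a fit, and the cabo change used all intratibial tumors. CPM used TMM library sizes, with a prior count of 2 for log2. Scores are means of log2 CPM.

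Alternatives were DESeq2 1.42.0, RLE size factors, no filter, counts divided by 4, a spline correction (5 degrees of freedom) for GC content and length, the muscle score as a covariate, all groups in one fit, the replicate block under the skin, and leaving out each tumor. The fits were tested on simulated data.

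The members, lists and alternatives were chosen with earlier results of these data known. Up to 4 genes per list, by smallest p, and the 5 genes most alike in pattern could be named. The pattern of Hdc and the clusters of Kit and endothelial score were added after their values were seen.

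The values of 1 listed gene are not reported here.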

Additional observations from a re-analysis of the deposited data

Results flagged for a closer look

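Some genes lay on one side of the comparison group in every tumor at one time or in one treatment, and on the opposite side in every tumor at the other, although none of these differences passed edgeR's test. DESeq2 called Cpa3 with cabo at day 14 and with IL-27+cabo at EOS, and Tpsb2 from day 14 to EOS with cabo. Against the controls of the same day, cabo gave Cpa3 a log2 fold change of -3.04 at day 14 and 1.66 at EOS, Mcpt4 -2.15 and 2.43, and Tpsb2 -1.78 and 1.74. The difference between these changes was tested for cabo and called none of the 3 genes (adjusted p = 0.938, 1.00 and 0.953, edgeR). For Cpa3, IL-27+cabo gave -2.09 at day 14 and 3.54 at EOS, and this difference was not tested. It shares its control tumors with cabo alone, and without mouse 28 the EOS value was 1.53. The day 14 values of Cpa3 without the control mouse 3 were -1.80 with cabo and -0.85 with IL-27+cabo. With the muscle score as a covariate, the day 14 values with cabo were 0.07 for Cpa3, -0.42 for Mcpt4 and 0.20 for Tpsb2. Cpa3 with IL-27+cabo was then at 0.88, so the day 14 direction turned for Cpa3 and Tpsb2.

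Read the other way, from day 14 to EOS, Cpa3 had a log2 fold change of -2.75 in the controls, 1.97 with cabo and 2.88 with IL-27+cabo, and Tpsb2 had -1.50 in the controls and 2.02 with cabo. Leaving out 1 tumor moved Cpa3 to -1.48 in the controls (without mouse 3), to 1.17 with cabo (without mouse 23) and to 0.89 with IL-27+cabo (without mouse 28), and Tpsb2 to -0.93 in the controls (without mouse 3). Between the control and cabo groups this is the same difference as above, and between the control and IL-27+cabo groups it was not tested. Counts were between 4 and 255 for Cpa3 in these tumors.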

How the results depend on the processing

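The values given for single genes in each comparison were recomputed with other settings. Over 65 such results, 444 values came from settings other than leaving out a tumor: 398 kept their direction and side of the threshold, 12 lost the call, 20 gained one and 14 changed direction. Leaving out a tumor gave 407 values, of which 371 kept both, 19 lost the call, 3 gained one and 14 changed direction. Why these moved was not tested.

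The number of members called under the skin, 1, was 2 with RLE size factors, 0 with the GC content and length offset, 3 with counts divided by 4, 5 with DESeq2, and 1 to 3 leaving out a tumor. With cabo against control at day 14 it was 0, 2 with DESeq2 and 0 to 1 leaving out a tumor, and with IL-27+cabo 0, 1 with DESeq2. Averaged over vectors the 1 call was 0 without a filter, 0 with the muscle covariate, 2 with DESeq2 and 0 to 1 leaving out a tumor. From day 14 to EOS with cabo the 2 calls were 0 without a filter, 1 with the GC offset, 0 with the muscle covariate, 4 with DESeq2, 0 with all 10 groups in one fit and 0 leaving out any tumor. DESeq2 called 1 with IL-27+cabo from day 14 to EOS and 1 at EOS against control, where edgeR called 0.

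Same-numbered subcutaneous tumors did not deviate together (r = -0.02 over 13857 genes). With 2 tumors a group this value cannot settle whether the numbers pair them. A replicate block gave 3 calls, and the replicate block with the GC correction 2.

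Direction changed for Hdc under the skin, to -0.071 with the GC offset, -0.088 with the block and GC correction, and -0.092 to 0.50 leaving out a tumor, and for Kit with IL-27 at day 14, to 0.046 with the GC offset and -0.32 to 0.10. The muscle covariate, which at day 14 moves with cabo, gave 0.072 for Cpa3, 2.29 for Cma1, 0.20 for Tpsb2 and -0.074 for Hdc with cabo at day 14. It gave 0.88 for Cpa3, 0.80 for Mcpt4, -0.74 for Hdc and 0.33 for Kitl with IL-27+cabo, 0.13 for Kitl averaged over vectors, and from day 14 to EOS -0.040 for Kit with IL-27 and -0.27 for Cma1 with cabo. Leaving out a tumor gave -1.67 to 0.023 for Cma1 with cabo and -1.10 to 0.49 for Mcpt4 with IL-27+cabo at day 14. From day 14 to EOS it gave -0.18 to 0.80 for Kit in the controls and -0.016 to 0.91 for Cma1 with cabo. At EOS it gave Kit -0.65 to 0.34 with IL-27, -0.48 to 0.50 with cabo and -0.70 to 0.29 with IL-27+cabo. With counts of 0 to 255, the depth limits what can be said of the proteases in bone.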
